A study of Gallus gallus with 4 samples.

Results

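The genes described here are the cell cycle genes of S phase and of G2/M phase, followed through the tissues of the chick trunk and through 4 stages. They were taken from a list of 35 names, 15 of S phase and 20 of G2/M, and from every name that begins with HIST1H. Of the listed names 33 were found in the gene table, and TYMS (S) and CCNB2 (G2/M) were not found by name. With 10 HIST1H genes this gave 43 members of 21328 genes in all, 14 for S, 19 for G2/M and 10 histones.

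A dividing cell copies its DNA in S phase and, after a gap, separates the copies in mitosis. S phase genes encode the helicase that opens the DNA, the clamp that holds the polymerase and the enzymes that make nucleotides, and their RNA rises before and during replication. G2/M genes encode the kinases, motors and kinetochore proteins that build the spindle and pull chromosomes apart, and their RNA accumulates until division. Core histone RNA of the replication-dependent kind is made in S phase and mostly ends in a stem-loop in place of a poly(A) tail, so a method that primes on poly(A) catches it only in part. In the trunk of the early embryo most tissues grow by division, and the notochord, a rod of mesoderm under the neural tube, is known to divide less as it matures.

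Cells were dissociated from chick embryos with 4, 7, 10 and 13 somites (4S, 7S, 10S and 13S, the span of HH8 to HH11), with the dissection keeping the tissue from the third somite to the tail. At least 4 embryos went into each stage, and each stage gave 1 droplet library of the 10x 3′ kind. The labels name no treatment or genotype, and no stage had a replicate, so a stage and its library cannot be told apart. Tissues were marked by a gate on a single gene, with TBXT for caudal progenitors and notochord, MSGN1 for caudal paraxial mesoderm, RIPPLY2 for the determination front, MEOX1 for somites, CHRD for notochord, PAX6 for neural tube, TFAP2A for surface ectoderm and LMO2 for blood and vessel precursors.

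After a filter on depth and mitochondrial share 25379 cells were kept, between 4025 and 8669 in a library, with median depths from 3758 unique molecular identifiers (UMIs) per cell at 7S to 8849 at 4S. The filter removed 2012 cells, all of the 7S library, which was the shallowest. Of 25316 distinct cell barcodes 63 occurred in more than 1 library. Each cell was thinned at random to 2500 UMIs before it was gated or scored, so that deep cells were not favoured. The gates held 4151 TBXT, 2423 MSGN1, 727 RIPPLY2, 2220 MEOX1, 989 CHRD, 853 PAX6, 785 TFAP2A and 780 LMO2 cells, and 57.2% of all cells passed none. PAX6 cells numbered only 20 at 4S.

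The gates were checked on marker genes that had no part in them. All listed markers that were found stood higher than in the other cells of all 4 libraries for TBXT (5 of 5), RIPPLY2 (3 of 3), CHRD (5 of 5), PAX6 (5 of 5), TFAP2A (5 of 5) and LMO2 (5 of 5). In the lowest library of PAX6 cells SOX1 and OLIG2 were each at 5.72 CPM and HES5 at 97.3 CPM. The 20 PAX6 cells at 4S held 174752 UMIs in all, so low values there rest on few UMIs and the identity of these cells is less sure. In MSGN1 cells TBX6 and DLL1 were higher and MESP1 was lower, and in MEOX1 cells TCF15 and FOXC2 were higher while PAX1 and MEOX2 were near 0, at 1.15 and 5.31 CPM. The gates overlapped, since 85.3% of CHRD cells were also TBXT cells and 49.1% of RIPPLY2 cells were also MEOX1 cells. In turn 16.1% of MEOX1 cells passed the RIPPLY2 gate, and the authors also describe MEOX1 in presomitic mesoderm. The MEOX1 gate can therefore hold cells that are not yet somites. Among LMO2 cells the erythroid genes HBZ and HBA1 summed to 419 CPM against 10.5 CPM in other cells. CHRD cells were shallower than other cells, with a ratio of median UMIs between 0.706 and 0.927 over the libraries. They also held FOXA1 (717 CPM against 7.24 CPM), which notochord and endoderm share, while the endoderm gene SOX17 was at 5.88 CPM against 10.0 CPM.

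Together the members took between 0.468% and 0.522% of the UMIs of a library. Levels below are counts per 1000000 UMIs (CPM) summed over cells, and since the kit tags the 3′ end they were not divided by gene length. For S phase, PCNA, the clamp that tethers the polymerase to DNA, was at 519, 439, 501 and 486 CPM at 4S, 7S, 10S and 13S. RRM2, a subunit of the reductase that makes deoxynucleotides, was at 239.7, 275, 243 and 179 CPM in the same order, lowest at 13S. MCM5, a subunit of the replicative helicase, was at 131, 189.8, 153 and 125 CPM and highest at 7S. These 3 had the highest mean CPM of the S list.

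Among G2/M genes, CDK1, the kinase that starts mitosis, was at 607, 709, 559 and 497 CPM at the 4 stages, again highest at 7S. TOP2A, the topoisomerase that untangles sister chromatids, was at 403, 483, 404 and 396 CPM, and TPX2, which nucleates spindle microtubules, at 248, 204, 241 and 247 CPM. TPX2 was lowest at 7S, the opposite of the other 2. Of the histones, HIST1H103 and HIST1H101, both of the linker histone H1 family, were at 309.7, 216, 282 and 312 CPM and 147, 188, 134 and 172 CPM. HIST1H111R, a further H1 gene, was at 53.8, 70.1, 54.3 and 72.2 CPM. The H2B, H3 and H4 genes all stood lower, with means between 6.85 and 18.8 CPM apart from HIST1H46L2 at 0.217 CPM. HIST1H genes resemble one another closely, so the split of UMIs between copies is uncertain.

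**Figure D1:**
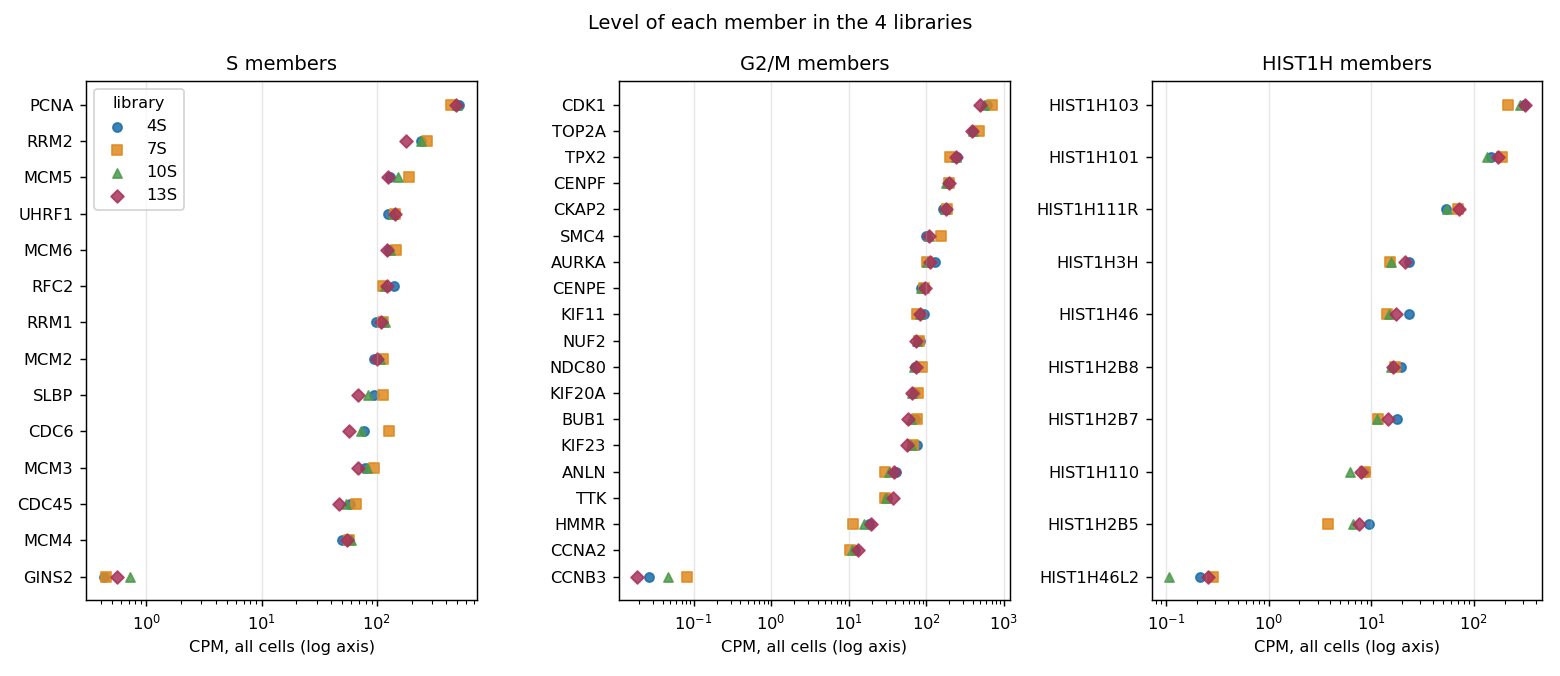
Level of each of the 43 members in all kept cells, in CPM on a log axis, with 1 point per library (1 library per stage). PCNA, CDK1 and HIST1H103 lead their lists, most members differ little between libraries, and GINS2, CCNB3 and HIST1H46L2 lie below 1 CPM.

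GINS2, CCNB3 and HIST1H46L2 had 103, 7 and 36 UMIs in all and did not pass the filter on low counts. The counts of members below therefore cover 13 S, 18 G2/M and 9 histone genes, a set that was chosen by its level.

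To ask whether the 3 lists mark phases of single cells, the thinned UMIs of the S list and of the G2/M list were summed per cell. Cells with at least 7 S UMIs were called S-high (5923 cells, 23.3%) and cells with at least 9 G2/M UMIs were called G2/M-high (5959 cells, 23.5%). These classes are ranges of a score and not types of cell, since 1971 cells lay at the S cut and 2510 cells 1 UMI below it, and 1607 and 1899 cells did so for G2/M. Free RNA in the droplets can add to these sums, and its part was not tested. Cells high for both were fewer than the product of the single shares in every library. They made 3.33% of cells at 4S (product 5.61%), 3.99% at 7S (7.67%), 1.94% at 10S (5.06%) and 1.77% at 13S (4.25%).

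How far single members took part in their own list was measured by a split that left the member out of the sum. Since the list made the split, these ratios are a description. Among G2/M genes the ratio of high cells to the rest was highest for CENPF, a kinetochore protein, at 2.68 ± 0.38 (SD over 4 libraries). HMMR, a spindle-associated protein, followed at 2.42 ± 0.42 and AURKA, a spindle pole kinase, at 2.25 ± 0.27. CDK1 had the lowest ratio of the G2/M list, 1.32 ± 0.15, and NUF2, a kinetochore protein, was next at 1.33 ± 0.13. In the S list CDC6, which loads the helicase, had the highest ratio at 1.77 ± 0.32 and MCM3 stood at 1.75 ± 0.20, while RRM1 (1.14 ± 0.04) and CDC45 (1.15 ± 0.11) had the lowest. All 31 members that passed the filter were higher in the high cells of all 4 libraries.

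S-high cells were then compared with the rest on the genes that had no part in the split, with edgeR's quasi-likelihood test and Benjamini-Hochberg adjustment over all genes. All 18 G2/M members tested were lower (median log2 difference -0.47) and all 9 histones higher (median 0.51), where 10.7% of all 11738 genes tested were called, 5.15% higher and 5.53% lower, with a median over all genes of 0.00. CENPF was at 122, 122, 90.6 and 95.7 CPM in S-high cells of the 4 stages and at 209.5, 227, 206 and 219 CPM in the rest (log2 difference -1.03 ± 0.041 SE, adjusted p = 1.57e-19). CENPE, a kinetochore motor, was at 57.7, 69.1, 54.0 and 59.5 CPM against 94.0, 103, 95.3 and 106 CPM (log2 difference -0.75 ± 0.038 SE, adjusted p = 9.73e-17). Neither gene's groups overlapped.

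HMMR was at 12.8, 9.62, 9.47 and 13.4 CPM in S-high cells and at 20.2, 12.3, 17.8 and 20.8 CPM in the rest (log2 difference -0.69 ± 0.077 SE, adjusted p = 2.39e-08), and its groups overlapped across libraries, though S-high cells were lower within each. HIST1H103 stood at 442, 265, 406 and 457 CPM against 272, 197, 244 and 278 CPM (log2 difference 0.66 ± 0.033 SE, adjusted p = 8.49e-17). Within each library the S-high cells were higher. The smaller HIST1H110, a linker histone, was at 11.9, 9.91, 9.01 and 12.8 CPM against 7.82, 8.11, 5.28 and 6.74 CPM (log2 difference 0.68 ± 0.099 SE, adjusted p = 3.99e-06) with no overlap, and HIST1H2B5, an H2B gene, at 13.8, 4.37, 9.87 and 10.1 CPM against 8.27, 3.52, 5.56 and 6.99 CPM (log2 difference 0.66 ± 0.099 SE, adjusted p = 7.12e-06).

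Other cell cycle genes, from lists that were not used in the split, followed the same division. Of 17 other replication genes 14 were higher in S-high cells and none lower, led by CCNE2, the cyclin that starts S phase, with 38.9 ± 4.94 CPM (mean ± SD, n = 4) against 17.8 ± 3.67 CPM (log2 difference 1.15 ± 0.057 SE, adjusted p = 7.07e-17). GINS1, a subunit of the helicase complex, had 80.8 ± 9.08 CPM against 47.3 ± 10.6 CPM (log2 difference 0.80 ± 0.049 SE, adjusted p = 1.66e-14), and CDT1, a loader of the helicase, had 4.44 ± 0.859 CPM against 2.65 ± 0.307 CPM (log2 difference 0.80 ± 0.14 SE, adjusted p = 1.21e-04). Of 17 other mitosis genes 15 were lower and none higher. UBE2C, which tags mitotic proteins for breakdown, fell from 311 ± 50.1 CPM in the rest to 182 ± 40.7 CPM (log2 difference -0.80 ± 0.031 SE, adjusted p = 1.46e-19). CKS2, a small partner of CDK1, was low throughout (0.301 ± 0.0409 CPM against 0.937 ± 0.402 CPM, log2 difference -1.54 ± 0.38 SE, adjusted p = 0.0062) and lost its call without the 7S library. Of 12 G1 cyclins, kinases and inhibitors 3 were higher and 4 lower.

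G2/M-high cells gave the mirror of this. Of 13 S members 11 were lower and 1 higher (median -0.72), and all 9 histones were lower (median -0.74), where 21.7% of all genes were called, 9.77% higher and 11.9% lower. MCM3, a helicase subunit, was at 51.1, 64.9, 41.1 and 33.5 CPM in G2/M-high cells and at 89.2, 106, 93.7 and 79.3 CPM in the rest (log2 difference -1.03 ± 0.063 SE, adjusted p = 1.15e-10), with no overlap. HIST1H103 was at 171, 139, 169.5 and 211 CPM against 357, 248, 314 and 344 CPM (log2 difference -0.90 ± 0.037 SE, adjusted p = 3.24e-13), again with no overlap. HIST1H2B5 was at 5.26, 1.41, 4.04 and 5.36 CPM against 10.9, 4.72, 7.30 and 8.28 CPM (log2 difference -0.94 ± 0.12 SE, adjusted p = 8.95e-06).

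The S member that went the other way was CDC45, which activates the helicase, at 62.1, 73.6, 58.3 and 54.3 CPM against 56.5, 62.1, 53.4 and 44.6 CPM (log2 difference 0.16 ± 0.041 SE, adjusted p = 0.0057). Its groups overlapped and the call was lost without the 13S library and with DESeq2. RRM1 did not pass the test. Of 17 other mitosis genes 16 were higher and none lower. ECT2, which sets the division plane, had 75.2 ± 7.81 CPM against 34.7 ± 6.46 CPM (log2 difference 1.11 ± 0.048 SE, adjusted p = 4.32e-13), and ASPM, a spindle pole protein, 294 ± 19.4 CPM against 135 ± 14.2 CPM (log2 difference 1.10 ± 0.036 SE, adjusted p = 1.09e-14). PRC1, a midzone protein, was low in both (2.79 ± 0.781 CPM against 1.19 ± 0.249 CPM, log2 difference 1.20 ± 0.18 SE, adjusted p = 4.36e-05). Of 17 other replication genes 10 were lower, with CCNE2 at 10.7 ± 5.77 CPM against 26.8 ± 4.87 CPM (log2 difference -1.47 ± 0.11 SE, adjusted p = 3.70e-09) and GINS1 at 32.1 ± 10.6 CPM against 62.5 ± 10.5 CPM (log2 difference -1.05 ± 0.076 SE, adjusted p = 1.59e-09).

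Depth moved with one of the classes. The median raw UMIs of G2/M-high cells were 1.09 ± 0.05 times those of the rest (mean ± SD, 4 of 4 libraries above 1, exact two-sided sign-flip permutation p = 0.13, the smallest that 4 libraries allow). For S-high cells the ratio was 0.983 ± 0.023, above 1 in 1 of 4 libraries (exact p = 0.25). The part of depth in the gene differences was not tested. Without the library as a block 1 member was called for S-high and 3 for G2/M-high cells.

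**Figure D2:**
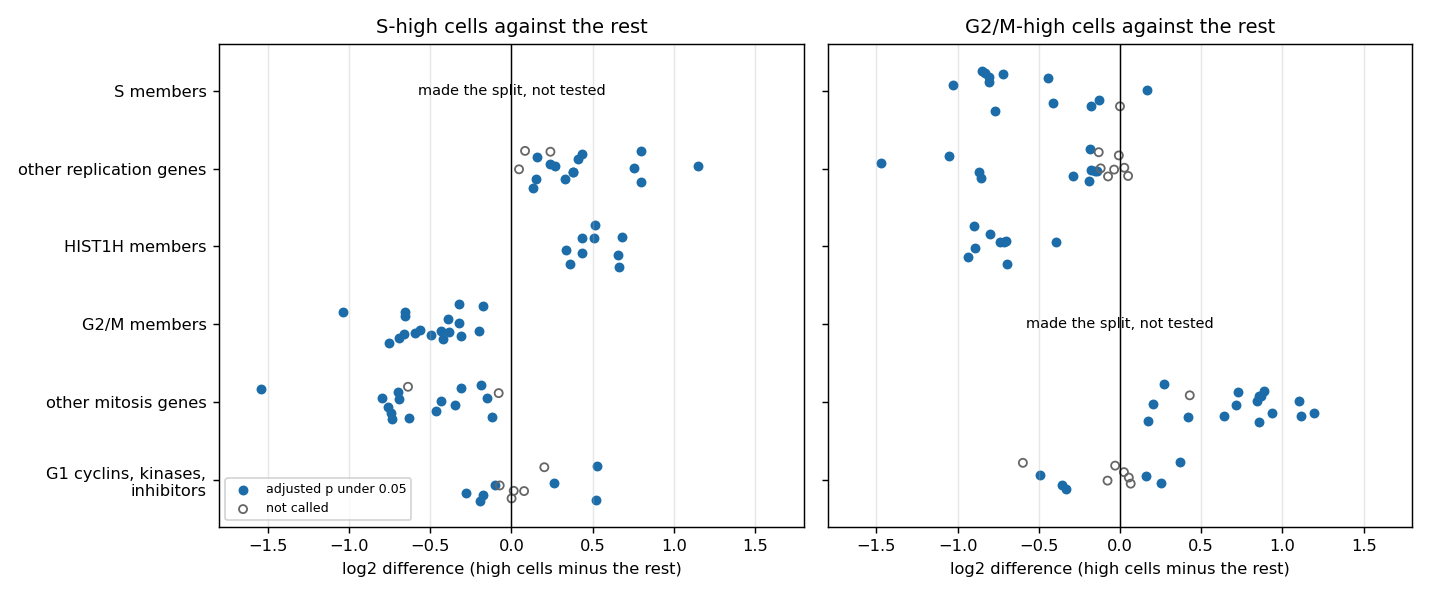
Log2 difference of each gene between S-high cells and the rest (left) and between G2/M-high cells and the rest (right), by list, with 1 point per gene and filled points for adjusted p under 0.05. In S-high cells G2/M members and most mitosis genes lie left of 0, and histones and most replication genes lie right. In G2/M-high cells histones and most S members lie left and mitosis genes right, with 10 of 17 other replication genes called lower. The list that made a split has no points in its panel.

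The 8 gated tissues were compared with all other cells of the same library. Cells under the minimum of a gate counted as other cells, so that side can hold cells of the same tissue. At 7S, 2215 cells had at least 1 thinned UMI of TBXT, and 1209 passed its gate. The sums cannot tell fewer cells in a phase from less RNA of these genes in each cell. Adjusted p-values here and below are from edgeR's quasi-likelihood test, blocked by library, with Benjamini-Hochberg adjustment over all genes tested. The block takes up differences in level between libraries. The p-values therefore weigh the difference within libraries against how much it varied over the 4 libraries, each of which is 1 stage. Of 40 members tested, 33 were called in CHRD cells, 19 in PAX6, 16 in MSGN1, 13 in MEOX1, 13 in LMO2, 9 in TFAP2A, 4 in TBXT and 2 in RIPPLY2 cells. The background, the share of all genes called in the same order of gates, was 31.5%, 21.4%, 23.6%, 22.5%, 19.7%, 19.9%, 19.9% and 8.89%. The lists did not move alike, since CHRD cells had members called lower in all 3, PAX6 cells were higher in S and G2/M and not in histones, and MSGN1 and MEOX1 cells were higher in G2/M genes and histones. These tissues share most of their comparison cells, so the comparisons are not independent.

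**Figure D3:**
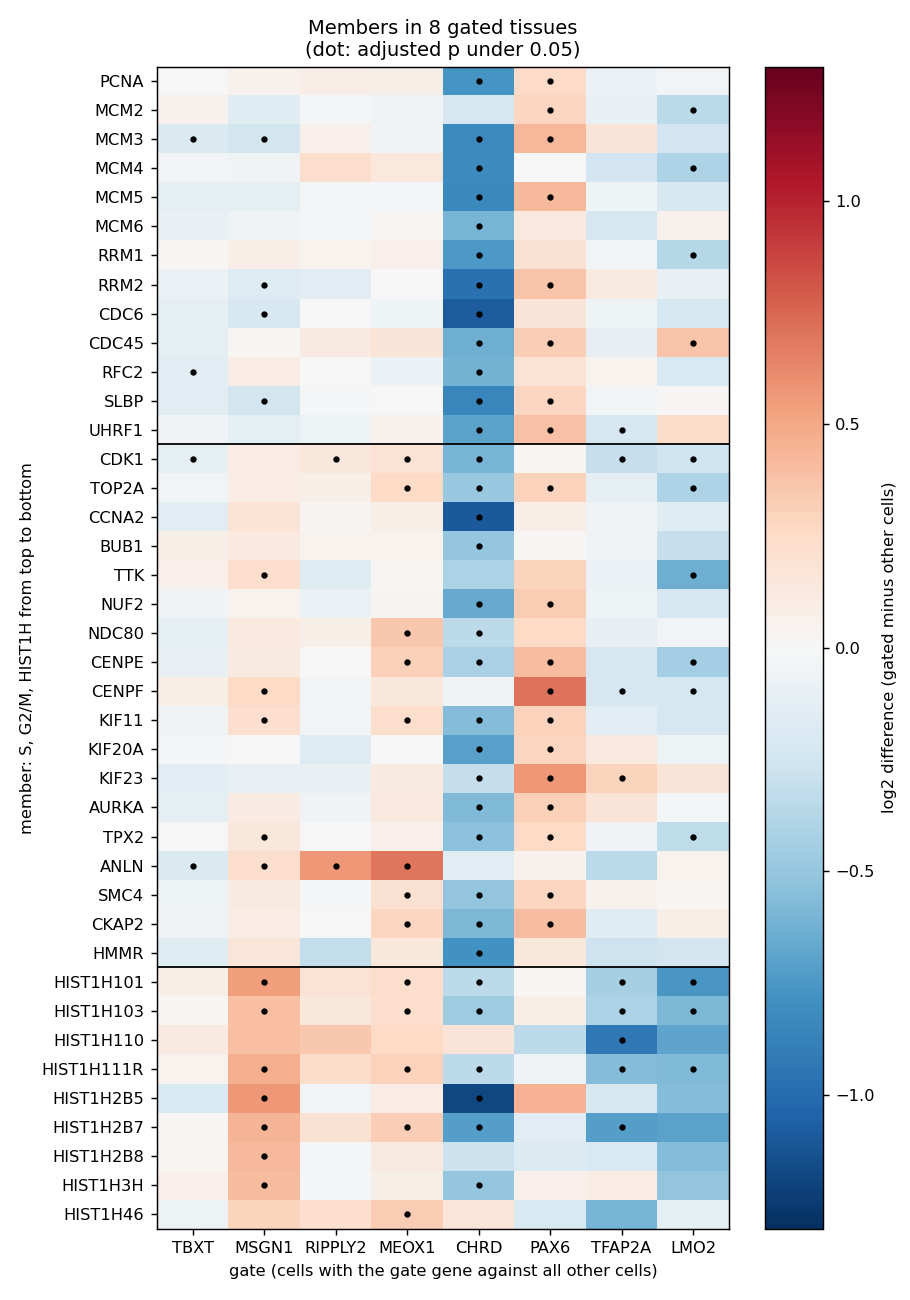
Log2 difference of each tested member (rows) between the cells of each gate and all other cells (columns), red for higher and blue for lower in the gated cells, with a dot where the adjusted p is under 0.05. The CHRD column is blue over most S and G2/M rows, the PAX6 column is red over most of them, and histone rows are red for MSGN1 and mostly blue for TFAP2A and LMO2.

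CHRD cells, which carry notochord genes, had the lowest summed S and G2/M levels of the 8 gates. Of the tested members 12 of 13 S genes (median log2 difference -0.77), 15 of 18 G2/M genes (median -0.52) and 6 of 9 histones (median -0.34) were lower and none was higher, where 31.5% of all genes were called, 16.4% lower, and the median over all genes was -0.03. The summed S list was at 1241, 1358, 1084 and 784 CPM in CHRD cells of the 4 stages against 1859, 2012, 1888 and 1704 CPM in other cells, a mean of 1117 ± 249 CPM against 1866 ± 127 CPM (SD, n = 4). The G2/M list was at 2030, 2157, 1556 and 1397 CPM against 2523, 2703, 2401 and 2379 CPM. In both lists the groups did not overlap, and all 4 libraries were lower (exact two-sided sign-flip p = 0.13, the smallest possible, for both).

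CDC6 was at 35.5, 71.0, 35.1 and 22.5 CPM in CHRD cells and at 78.6, 131, 74.0 and 58.0 CPM in other cells (log2 difference -1.08 ± 0.11 SE, adjusted p = 1.76e-06). CHRD cells were lower within each stage, and the groups overlapped only across stages. CCNA2, the cyclin that drives S phase and entry to mitosis, was at 6.45, 9.38, 4.01 and 4.16 CPM against 12.3, 10.6, 11.2 and 13.5 CPM (log2 difference -1.09 ± 0.26 SE, adjusted p = 0.005), without overlap, and lost its call without the 10S library. HIST1H2B5 was at 5.81, 0, 3.51 and 1.66 CPM against 9.66, 3.87, 6.68 and 7.72 CPM (log2 difference -1.19 ± 0.36 SE, adjusted p = 0.02), where the 7S value is 0 of 746557 UMIs, which allows up to 4.02 CPM (3 UMIs, counting error only). Its call was lost without the 10S and without the 13S library. RRM2 (-0.97), SLBP, which binds the histone stem-loop (-0.84), HMMR (-0.79) and KIF20A, a motor of late mitosis (-0.71), were among the other members called lower. The members not called were MCM2, TTK, CENPF, ANLN, HIST1H110, HIST1H2B8 and HIST1H46.

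Beyond the members, 14 of 17 other replication genes and 11 of 16 other mitosis genes were lower in CHRD cells, and none was higher. ORC1, which marks replication origins, had 19.0 ± 3.82 CPM against 43.4 ± 2.63 CPM (log2 difference -1.20 ± 0.15 SE, adjusted p = 1.64e-05). CLSPN, a replication checkpoint protein, had 22.1 ± 5.75 CPM against 40.9 ± 2.76 CPM (log2 difference -0.91 ± 0.14 SE, adjusted p = 1.39e-04). The nucleotide enzymes TK1 (40.4 ± 10.4 CPM against 76.2 ± 6.18 CPM, log2 difference -0.89 ± 0.13 SE, adjusted p = 5.60e-05) and DUT (272 ± 24.3 CPM against 468 ± 63.7 CPM, log2 difference -0.76 ± 0.061 SE, adjusted p = 1.50e-07) were lower without overlap. BTG1, which restrains proliferation, went up, with 327 ± 42.0 CPM against 176 ± 25.2 CPM (log2 difference 0.91 ± 0.073 SE, adjusted p = 1.46e-07), and its groups did not overlap.

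The share of S-high cells in the CHRD gate was 12.0%, 15.8%, 9.14% and 5.80% at the 4 stages, against 23.6%, 28.5%, 24.0% and 19.8% of other cells. That of G2/M-high cells was 18.7%, 18.9%, 17.5% and 11.1% against 24.8%, 27.6%, 21.8% and 22.2%. On thinned counts the mean differences were -13.3 and -7.59 percentage points, and on unthinned counts, where the shallower depth of CHRD cells also counts, -19.7 and -14.1 points. By phase calls they were -12.4 and -13.0 points. On average 51.8% of CHRD cells were assigned to G1, against 27.4% of all cells. G1 here is the class left to cells with low scores for both lists, and no genes of its own were scored. By the same calls 25.2% of all cells were in S and 47.4% in G2/M, so these are classes of a score and not measured phases.

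CHRD cells inside and outside the TBXT gate were also taken apart, and the difference between these groups was not tested. In the 844 CHRD cells that also passed the TBXT gate the S list was at 1051 ± 247 CPM and the G2/M list at 1698 ± 400 CPM, and 32 members were called lower where 31.4% of all genes were called. In the 145 CHRD cells outside the TBXT gate (between 24 and 56 in a library) the lists were at 1490 ± 360 and 2259 ± 266 CPM and 4 members were called, PCNA, RRM2, UHRF1 and CDK1, all lower, where 6.68% of all genes were called in these fewer cells. With cells that passed the CHRD gate alone (131 cells) 6 members were called where 7.88% of all genes were, and the difference in G2/M-high share turned to 1.08 points. A gate of at least 1 UMI gave a difference of -433 CPM in the S list, in place of -749 CPM, and of -350 CPM in the G2/M list, in place of -716 CPM. With it the S-high and G2/M-high shares differed by -7.57 and -3.71 points. The split by TBXT was chosen after the data were seen.

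TBXT cells as a whole had few calls, while their S and G2/M sums were lower than in other cells. The S list had a mean of 1747 CPM against 1859 CPM, and the G2/M list 2356 CPM against 2503 CPM. Both were lower in 4 of 4 libraries (exact two-sided sign-flip p = 0.13, the smallest possible). Shares of S-high and G2/M-high cells differed by -2.98 and -2.83 points, also lower in 4 of 4. The histone list was higher in 2 of 4. Of the members 2 S genes and 2 G2/M genes were lower and none was higher, with no histone called, where 19.9% of all genes were called, 9.26% lower. MCM3 was at 73.0, 89.0, 67.4 and 56.6 CPM in TBXT cells and at 81.6, 95.3, 83.9 and 70.1 CPM in other cells (log2 difference -0.19 ± 0.049 SE, adjusted p = 0.018). RFC2, a subunit of the clamp loader, was at 130.1, 104, 103 and 113 CPM against 144, 116, 120.4 and 124 CPM (log2 difference -0.14 ± 0.037 SE, adjusted p = 0.024). ANLN, a scaffold of the cleavage furrow, was at 38.1, 26.2, 28.2 and 33.1 CPM against 41.9, 30.6, 34.4 and 38.9 CPM (log2 difference -0.19 ± 0.056 SE, adjusted p = 0.039). In all 3 the groups overlapped across stages.

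These calls depended on single libraries. Without the 7S, the 10S and the 13S library 1, 0 and 2 members were called. When the cells of the CHRD gate were left out on both sides, a comparison chosen after the data were seen, 5 members were called where 18.0% of all genes were. All 5 were higher, and these were PCNA (0.11), RRM1 (0.13), BUB1 (0.18), HIST1H101 (0.16) and HIST1H103 (0.11, all log2). None of the 4 genes of the full gate was among them. The 3307 TBXT cells outside the CHRD gate had 1883 ± 151 CPM of the S list against 1861 ± 122 CPM in cells of neither gate, and 2486 ± 132 against 2504 ± 154 CPM of the G2/M list. Among other cell cycle genes TBXT cells had less CDK6, a G1 kinase (65.9 ± 6.64 CPM against 89.5 ± 12.4 CPM, log2 difference -0.40 ± 0.052 SE, adjusted p = 2.61e-04), less GADD45A, a stress and arrest gene (129 ± 11.3 CPM against 153 ± 6.14 CPM, log2 difference -0.22 ± 0.043 SE, adjusted p = 0.0035), and more BTG1 (201 ± 24.8 CPM against 176 ± 26.2 CPM, log2 difference 0.23 ± 0.035 SE, adjusted p = 8.58e-04). BTG1 lost its call without the CHRD cells. CDC25B (log2 -0.34) lost its call without the 7S, 10S or 13S library, and RB1 (0.20) without the 4S, 7S or 10S library.

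CHRD cells were also set against TBXT cells directly, leaving out cells that passed both gates, so that 145 CHRD cells remained. Notochord markers were checked on the whole CHRD gate and not on these 145 cells, so their identity is less sure. Of the members 3 S genes and 1 G2/M gene (CDK1, -0.41) were lower and none higher, where 8.83% of all genes were called, 4.12% lower. PCNA was at 400.5, 424, 435 and 245 CPM in CHRD cells and at 553, 471, 521 and 511 CPM in TBXT cells (log2 difference -0.53 ± 0.11 SE, adjusted p = 7.28e-05), with no overlap. RRM2 was at 225, 160.4, 195 and 72.2 CPM against 254, 282, 245 and 177 CPM (log2 difference -0.56 ± 0.14 SE, adjusted p = 0.0021), and RRM1, the other reductase subunit, at 45.0, 115, 111 and 62.6 CPM against 105, 119, 126 and 118 CPM (log2 difference -0.58 ± 0.19 SE, adjusted p = 0.029). Their groups overlapped. All 3 lost their call without the 13S library, where 2 members remained called, and RRM1 also without the 4S library. Another random thinning gave 10 members and DESeq2 1.

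BTG1 (350.3 ± 98.2 CPM against 178 ± 21.5 CPM, log2 difference 0.89 ± 0.13 SE, adjusted p = 1.20e-10) was higher in CHRD than in TBXT cells. TK1 (log2 difference -0.80 ± 0.23 SE, adjusted p = 0.011) and DUT (log2 difference -0.55 ± 0.11 SE, adjusted p = 4.35e-05) were lower. TK1 lost its call without the 13S library.

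PAX6 cells of the neural tube were the reverse of CHRD cells for S and G2/M genes. Of the tested members 8 of 13 S genes (median log2 difference 0.28) and 11 of 18 G2/M genes (median 0.29) were higher and none lower, and no histone was called, where 21.4% of all genes were called, 9.50% higher, with a median of -0.02. The S list was at 2712, 2464, 2234 and 1969 CPM in PAX6 cells against 1829, 1973, 1846 and 1671 CPM in other cells, a mean of 2345 ± 318 CPM against 1830 ± 124 CPM. The G2/M list was at 3107, 3231, 2846 and 3000.4 CPM against 2499.7, 2664, 2353 and 2329 CPM, a mean of 3046 ± 163 CPM against 2462 ± 155 CPM. Across stages the S groups overlapped narrowly and the G2/M groups did not. Both lists were higher in 4 of 4 libraries (exact two-sided sign-flip p = 0.13 for both, the smallest possible).

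CENPF was at 275, 349, 292 and 306 CPM in PAX6 cells and at 189, 191, 174 and 191 CPM in other cells (log2 difference 0.70 ± 0.082 SE, adjusted p = 2.12e-13), with no overlap. KIF23, a motor of the midzone, was at 80.1, 115, 93.8 and 79.8 CPM against 76.3, 65.8, 61.7 and 56.2 CPM (log2 difference 0.56 ± 0.10 SE, adjusted p = 2.52e-06), also with no overlap. MCM3 was at 160.2, 124, 109 and 85.2 CPM against 79.1, 92.8, 80.7 and 67.7 CPM (log2 difference 0.43 ± 0.098 SE, adjusted p = 2.59e-04), highest in the 20 cells of the 4S library, and its groups overlapped. The histone list was at 532, 423, 612 and 782 CPM against 613, 550, 538 and 635 CPM, lower at 4S and 7S and higher at 10S and 13S.

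CDC25B, the phosphatase that switches CDK1 on, had the largest difference of the other cell cycle genes in PAX6 cells, with 138 ± 53.8 CPM against 65.7 ± 9.95 CPM (log2 difference 1.12 ± 0.096 SE, adjusted p = 7.76e-22). CCND1, a G1 cyclin, had 263 ± 26.2 CPM against 162 ± 35.9 CPM (log2 difference 0.67 ± 0.085 SE, adjusted p = 1.02e-11). Of 16 other mitosis genes 8 were higher, among them ECT2 (log2 difference 0.56 ± 0.11 SE, adjusted p = 2.41e-05), ASPM (log2 difference 0.43 ± 0.085 SE, adjusted p = 1.53e-05) and the checkpoint kinase BUB1B (log2 difference 0.42 ± 0.091 SE, adjusted p = 9.66e-05). None of the 17 other replication genes was called.

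S-high cells made 45.0%, 37.3%, 35.2% and 23.8% of PAX6 cells at the 4 stages, against 22.8%, 27.7%, 22.8% and 19.2% of other cells, and G2/M-high cells 30.0%, 42.6%, 30.4% and 32.7% against 24.4%, 26.8%, 21.3% and 21.5%. Mean differences were 12.2 and 10.4 points on thinned and 15.8 and 11.9 points on unthinned counts, and by phase calls 4.25 and 6.76 points. A gate of 2 UMIs gave a G2/M difference of 953 CPM, in place of 585 CPM, and of 17.8 points in G2/M-high cells. PAX6 cells were deeper than other cells by a ratio of 1.03 to 1.15. The number of members called was 7 without the 10S and 8 without the 13S library, 8 with a gate of 2 UMIs, 12 with DESeq2 and 2 without the library block, so the size of the set depends on these choices. The 3 members given in full stayed called without any 1 library.

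Against TBXT cells, with cells of both gates left out, PAX6 cells were higher in 9 of 13 S genes and 12 of 18 G2/M genes, and in no histone, where 21.3% of all genes were called, 9.62% higher. KIF23 was at 80.1, 115, 94.7 and 79.7 CPM in PAX6 and 74.1, 62.3, 51.9 and 51.0 CPM in TBXT cells (log2 difference 0.70 ± 0.11 SE, adjusted p = 2.61e-05). CENPF was at 275, 351, 296 and 304 CPM against 211, 203, 165 and 203 CPM (log2 difference 0.65 ± 0.086 SE, adjusted p = 1.24e-06). For both the groups did not overlap. MCM3 was at 160.2, 124, 109.5 and 86.2 CPM against 73.0, 89.1, 67.2 and 56.6 CPM (log2 difference 0.62 ± 0.10 SE, adjusted p = 3.48e-05), with overlap across stages. Without the 10S library 9 members were called. CDC25B (log2 difference 1.46 ± 0.12 SE, adjusted p = 1.76e-10), CCND1 (log2 difference 0.73 ± 0.089 SE, adjusted p = 3.01e-07), ECT2 (log2 difference 0.55 ± 0.11 SE, adjusted p = 6.06e-04) and KIF18A, a motor that trims spindle microtubules (log2 difference 0.54 ± 0.12 SE, adjusted p = 0.001), were higher as well. KIF18A lost its call without the 10S library. CDK6 (log2 difference 0.51 ± 0.15 SE, adjusted p = 0.014) was higher in 2 of 4 libraries and lost its call without the 10S or the 13S library.

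In MSGN1 cells of the caudal paraxial mesoderm S genes and histones went apart. Of the S members 4 were lower and none higher (median log2 difference -0.11), 5 G2/M genes were higher and none lower (median 0.12), and 7 of 9 histones were higher (median 0.42), where 23.6% of all genes were called, 11.0% higher and 12.6% lower, with a median of 0.01. The histone list was at 753, 719, 658 and 839 CPM in MSGN1 cells against 597, 523, 530.2 and 623 CPM in other cells, a mean of 742 ± 76 CPM against 568 ± 49 CPM, with no overlap. The S list was at 1723 ± 140 CPM against 1855 ± 127 CPM, lower in 4 of 4 libraries, and the G2/M list at 2567 ± 108 CPM against 2471 ± 157 CPM, higher in 4 of 4 (exact two-sided sign-flip p = 0.13 for each of the 3 lists, the smallest possible). With a gate of at least 1 UMI the G2/M difference was 34.3 CPM, in place of 95.4 CPM.

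HIST1H101 was at 195, 253, 183 and 235 CPM in MSGN1 cells and at 141, 179.9, 129.7 and 166 CPM in other cells (log2 difference 0.55 ± 0.042 SE, adjusted p = 2.20e-07), with no overlap. HIST1H111R was at 60.6, 99.1, 67.0 and 99.6 CPM against 53.0, 66.4, 53.1 and 69.8 CPM (log2 difference 0.47 ± 0.068 SE, adjusted p = 1.29e-04), and HIST1H2B5 at 10.9, 6.82, 8.17 and 11.7 CPM against 9.33, 3.36, 6.43 and 7.22 CPM (log2 difference 0.57 ± 0.16 SE, adjusted p = 0.015). Both were higher within each library and overlapped across libraries. HIST1H2B5 lost its call without the 7S or the 13S library.

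The S genes that fell did so by less. MCM3 was at 67.2, 87.3, 68.0 and 48.9 CPM against 81.0, 94.9, 83.3 and 70.2 CPM (log2 difference -0.24 ± 0.064 SE, adjusted p = 0.013). SLBP was at 69.5, 105, 67.0 and 59.7 CPM against 97.4, 113, 86.1 and 69.1 CPM (log2 difference -0.23 ± 0.066 SE, adjusted p = 0.018), and CDC6 at 65.1, 125, 55.0 and 46.6 CPM against 78.2, 129, 74.5 and 58.1 CPM (log2 difference -0.21 ± 0.066 SE, adjusted p = 0.035). All 3 overlapped across stages and lost their call without the 10S library, MCM3 and CDC6 also without 13S and SLBP and CDC6 also without 4S. Without the 10S library 7 members in all were called in place of 16.

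Among the other genes BTG2, which restrains proliferation, was higher in MSGN1 cells, with 54.7 ± 13.2 CPM against 32.5 ± 5.18 CPM (log2 difference 0.81 ± 0.083 SE, adjusted p = 4.19e-06). CDK6 (54.8 ± 5.24 CPM against 88.9 ± 13.0 CPM, log2 difference -0.64 ± 0.071 SE, adjusted p = 8.04e-06) and the G1 cyclins CCND2 (log2 difference -0.57 ± 0.11 SE, adjusted p = 0.0014) and CCND3 (log2 difference -0.42 ± 0.10 SE, adjusted p = 0.008) were lower. CHAF1A, which places histones on new DNA, was slightly higher (log2 difference 0.25 ± 0.065 SE, adjusted p = 0.01). CCND3 lost its call without the 10S library, and CHAF1A without the 7S or the 13S library.

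MEOX1 cells, the gate for somites, were higher in G2/M genes and histones and not in S genes. Of the members 8 of 18 G2/M genes (median 0.15) and 5 of 9 histones (median 0.23) were higher, and no S gene was called, where 22.5% of all genes were called, 10.5% higher, with a median of 0.01. The G2/M list was at 2958, 2899, 2784 and 2526 CPM against 2468, 2664, 2337 and 2343 CPM (mean 2792 ± 191 against 2453 ± 153 CPM), higher in 4 of 4 libraries (exact two-sided sign-flip p = 0.13, the smallest possible). The S list was at 1871 ± 192 CPM against 1840 ± 122 CPM, higher in 2 of 4 libraries (exact p = 0.75).

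ANLN was at 61.7, 40.7, 53.0 and 63.3 CPM in MEOX1 cells and at 39.4, 28.5, 31.9 and 36.1 CPM in other cells (log2 difference 0.69 ± 0.075 SE, adjusted p = 5.98e-05), with no overlap. NDC80, a kinetochore protein, was at 101, 106, 85.3 and 88.7 CPM against 69.1, 87.6, 69.2 and 73.6 CPM (log2 difference 0.35 ± 0.064 SE, adjusted p = 0.0025), higher within each library. HIST1H46, an H4 gene, was at 27.6, 19.0, 16.1 and 23.7 CPM against 23.0, 13.7, 14.9 and 17.0 CPM (log2 difference 0.33 ± 0.10 SE, adjusted p = 0.045), and lost its call without any 1 of the 4 libraries. Without the 7S or the 10S library 6 and 5 members were called in place of 13. The share of G2/M-high cells was 37.0%, 31.3%, 32.2% and 25.3% against 23.3%, 26.9%, 20.6% and 21.6%, a mean difference of 8.36 points that was 2.01 points on unthinned counts. MEOX1 cells were shallower than other cells, by a ratio of 0.858 to 0.945.

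GADD45A was the most changed other gene of the MEOX1 cells, with 258 ± 20.5 CPM against 139 ± 10.0 CPM (log2 difference 0.89 ± 0.071 SE, adjusted p = 5.88e-06). CCND1 was higher (266 ± 91.2 CPM against 156 ± 32.3 CPM, log2 difference 0.73 ± 0.13 SE, adjusted p = 0.0018). CDK6 (log2 difference -0.75 ± 0.09 SE, adjusted p = 1.34e-04), CCND3 (log2 difference -0.70 ± 0.089 SE, adjusted p = 2.05e-04) and BTG1 (log2 difference -0.61 ± 0.082 SE, adjusted p = 3.07e-04) were lower in all 4 libraries. These 5 kept their call without any 1 library.

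MEOX1 cells were next compared with MSGN1 cells, leaving out cells of both gates. Between MEOX1 and MSGN1 cells 3 members were higher and 1 lower, where 21.8% of all genes were called, 10.6% higher and 11.2% lower. ANLN was at 59.7, 41.1, 53.8 and 64.0 CPM in MEOX1 and 48.4, 28.2, 35.7 and 43.2 CPM in MSGN1 cells (log2 difference 0.46 ± 0.087 SE, adjusted p = 0.0029). TOP2A was at 497, 535, 512 and 451 CPM against 405, 490.1, 418 and 406 CPM (log2 difference 0.17 ± 0.048 SE, adjusted p = 0.026), and SLBP at 91.7, 116, 81.3 and 76.0 CPM against 70.9, 106, 67.5 and 59.9 CPM (log2 difference 0.23 ± 0.072 SE, adjusted p = 0.045). HIST1H101 was lower, at 139.8, 223, 159 and 207 CPM against 193, 252, 184 and 235 CPM (log2 difference -0.30 ± 0.06 SE, adjusted p = 0.0037). All 4 overlapped across stages while each library had the same direction.

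Without the 10S library 2 members were called, with TOP2A lost, and SLBP lost its call without any 1 library. BTG2 (24.0 ± 7.90 CPM against 53.7 ± 12.8 CPM, log2 difference -1.23 ± 0.099 SE, adjusted p = 3.96e-06) and BTG1 (log2 difference -0.43 ± 0.09 SE, adjusted p = 0.0054) were lower in MEOX1 than in MSGN1 cells, and GADD45A (log2 difference 0.63 ± 0.085 SE, adjusted p = 2.54e-04), CCND1 (log2 difference 0.62 ± 0.10 SE, adjusted p = 0.0013) and E2F1, a factor that switches on S phase genes (log2 difference 0.41 ± 0.11 SE, adjusted p = 0.023), were higher. BTG1 lost its call without 10S, and E2F1 without 7S, 10S or 13S.

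In RIPPLY2 cells, of which each library held between 137 and 226, 2 members were called, both higher G2/M genes, where 8.89% of all genes were called, 4.71% higher and 4.18% lower. ANLN was at 60.0, 34.2, 49.7 and 56.3 CPM in RIPPLY2 cells and at 40.4, 29.5, 33.4 and 37.6 CPM in other cells (log2 difference 0.56 ± 0.11 SE, adjusted p = 5.62e-04). CDK1 was at 609.5, 763, 666 and 518 CPM against 607, 707, 557 and 496 CPM (log2 difference 0.15 ± 0.046 SE, adjusted p = 0.041). Both overlapped across stages, and CDK1 lost its call without the 7S, 10S or 13S library, which left 1 member. In the 246 cells that passed the RIPPLY2 gate alone ANLN was not called. GADD45A was again higher (281 ± 35.0 CPM against 145 ± 8.54 CPM, log2 difference 0.99 ± 0.071 SE, adjusted p = 4.42e-13), as was CCND1 (log2 difference 0.35 ± 0.083 SE, adjusted p = 0.0037), while CCND2 (log2 difference -0.60 ± 0.11 SE, adjusted p = 1.27e-04), CDK6 (log2 difference -0.53 ± 0.11 SE, adjusted p = 5.21e-04) and CCND3 (log2 difference -0.53 ± 0.14 SE, adjusted p = 0.012) were lower. CCND1 lost its call without 4S, and CCND3 without 7S or 10S.

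In TFAP2A cells of the surface ectoderm 5 of the 9 calls were histones. Of 9 histones 5 were lower and none higher (median log2 difference -0.43), with 1 S gene lower (UHRF1, a reader of methylated DNA, -0.22), 1 G2/M gene higher (KIF23) and 2 lower (CDK1, -0.30, and CENPF, -0.21), where 19.9% of all genes were called, 10.3% higher and 9.60% lower, with a median of -0.03. The histone list was at 405, 387, 417 and 510.5 CPM against 618, 550.0, 545 and 647 CPM, with no overlap (exact two-sided sign-flip p = 0.13, the smallest possible). HIST1H111R was at 26.5, 44.8, 35.1 and 56.0 CPM in TFAP2A cells and at 54.5, 70.9, 54.9 and 73.0 CPM in other cells (log2 difference -0.57 ± 0.12 SE, adjusted p = 0.0013). HIST1H2B7 was at 7.21, 7.00, 7.31 and 9.83 CPM against 18.1, 11.8, 11.6 and 14.7 CPM (log2 difference -0.72 ± 0.22 SE, adjusted p = 0.023), with no overlap.

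HIST1H110 was at 7.21, 4.20, 2.44 and 3.85 CPM against 8.76, 8.75, 6.28 and 8.08 CPM (log2 difference -0.93 ± 0.30 SE, adjusted p = 0.032), and KIF23 at 97.4, 106, 66.8 and 59.9 CPM against 75.8, 66.5, 63.0 and 57.1 CPM (log2 difference 0.29 ± 0.097 SE, adjusted p = 0.042). KIF23, HIST1H110 and HIST1H2B7 lost their calls without the 7S and without the 10S library, HIST1H110 also without 13S and HIST1H2B7 without 4S. Without the 7S or the 10S library 5 and 4 members were called in place of 9. Of the other genes BTG2 was higher (69.6 ± 12.9 CPM against 33.5 ± 6.40 CPM, log2 difference 1.11 ± 0.14 SE, adjusted p = 4.91e-06), as was BTG1 (log2 difference 0.36 ± 0.094 SE, adjusted p = 0.0098), and CCND1 (106 ± 22.0 CPM against 167 ± 36.1 CPM, log2 difference -0.58 ± 0.098 SE, adjusted p = 2.07e-04), CHAF1A (log2 difference -0.40 ± 0.11 SE, adjusted p = 0.015) and GINS1 (log2 difference -0.33 ± 0.10 SE, adjusted p = 0.025) were lower. BTG1, CHAF1A and GINS1 lost their calls without 10S, BTG1 and CHAF1A also without 13S and CHAF1A without 7S.

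LMO2 cells of the blood and vessel lineages had lower members in all 3 lists. Of the members 3 S genes (median log2 difference -0.20), 6 G2/M genes (median -0.22) and 3 histones (median -0.57) were lower, and CDC45 was higher, where 19.7% of all genes were called, 10.8% higher and 8.93% lower, with a median of -0.04. The G2/M list was at 2314, 2357, 1995 and 1998 CPM against 2512, 2696, 2386 and 2364 CPM, and the histone list at 484, 356, 339 and 364 CPM against 619.8, 551, 547 and 647 CPM. Both were lower in 4 of 4 libraries (exact two-sided sign-flip p = 0.13, the smallest possible). The groups of neither list overlapped, though those of G2/M were close. G2/M-high cells made 16.1 ± 3.9% against 24.1 ± 2.6%, a difference of -8.02 points. With a gate of at least 1 UMI this was -3.05 points, the G2/M list differed by -137 CPM, in place of -324 CPM, and the histone list by -127 CPM, in place of -205 CPM.

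HIST1H101 was at 103, 115, 75.7 and 91.3 CPM in LMO2 cells and at 149, 190.4, 136 and 173 CPM in other cells (log2 difference -0.75 ± 0.084 SE, adjusted p = 6.56e-05), with no overlap. HIST1H103 was at 248, 148, 181 and 178 CPM against 313, 218, 285 and 315 CPM (log2 difference -0.59 ± 0.078 SE, adjusted p = 2.46e-04). TTK, a spindle checkpoint kinase, was at 22.0, 15.4, 17.3 and 29.2 CPM against 31.9, 29.7, 31.0 and 37.8 CPM (log2 difference -0.64 ± 0.15 SE, adjusted p = 0.01), without overlap, and lost its call without the 10S library. CDC45 was at 61.7, 93.8, 70.9 and 65.8 CPM against 57.7, 64.6, 54.0 and 46.5 CPM (log2 difference 0.37 ± 0.10 SE, adjusted p = 0.027) and lost its call without the 7S, the 10S or the 13S library. Without the 10S library 6 members were called in place of 13.

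CCND1 was lower in LMO2 cells without overlap (79.6 ± 9.63 CPM against 168 ± 36.2 CPM, log2 difference -1.05 ± 0.086 SE, adjusted p = 5.10e-06), as were GADD45A (86.0 ± 9.36 CPM against 151 ± 7.83 CPM, log2 difference -0.80 ± 0.092 SE, adjusted p = 8.49e-05) and the spindle motor KIF2C (log2 difference -0.54 ± 0.14 SE, adjusted p = 0.016), while BTG2 (log2 difference -0.83 ± 0.15 SE, adjusted p = 0.0018) was lower with overlap. CCND3, a D-type cyclin of G1, was higher (61.4 ± 26.3 CPM against 40.3 ± 11.2 CPM, log2 difference 0.57 ± 0.12 SE, adjusted p = 0.0055). KIF2C lost its call without the 7S or the 10S library. The erythroid genes given above moved with this gate, and their part in these differences was not tested.

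**Figure D4:**
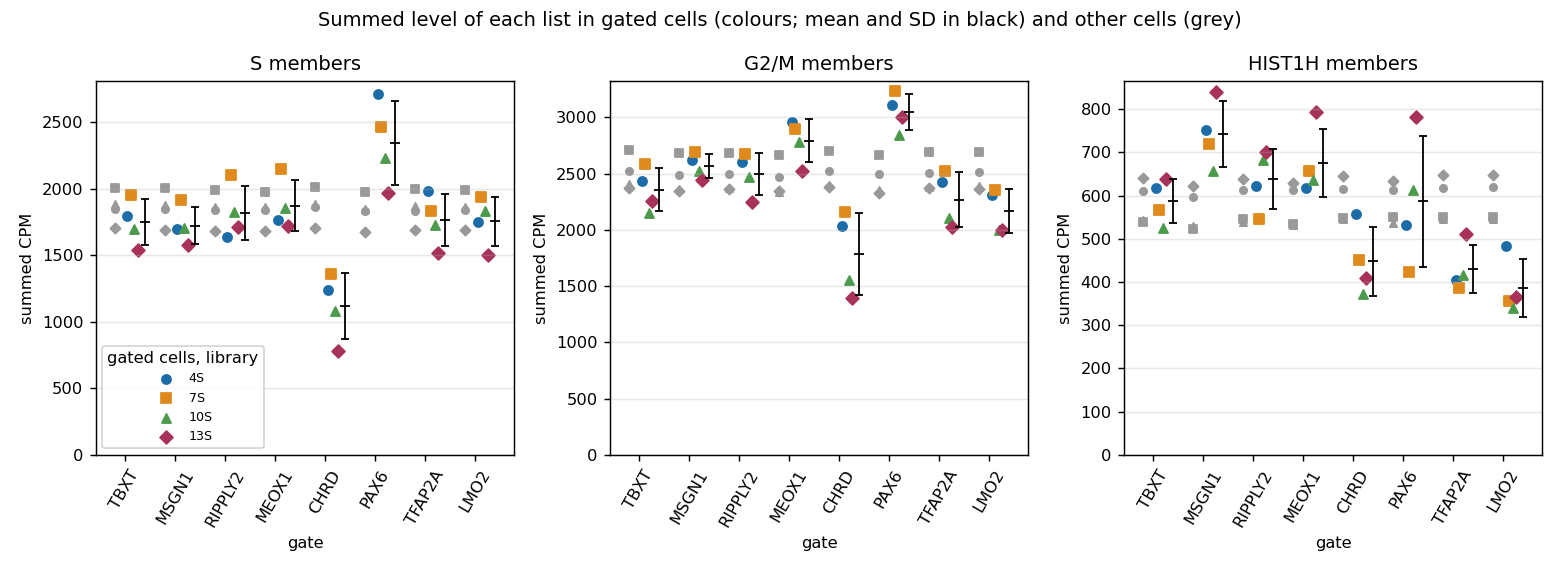
Summed CPM of the S, G2/M and HIST1H members in the cells of each gate (coloured, 1 point per library, mean and SD in black) and in all other cells of the same library (grey). Within each library CHRD cells lie below the other cells in all 3 lists, PAX6 cells above them in S and G2/M, and MSGN1 cells above them in histones.

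Looked at by member, CDK1 was called in the most gates among G2/M genes, 6 of 8, with 4 lower and 2 higher. Of the linker histones HIST1H101, HIST1H103 and HIST1H111R were each called in 5 of 8 gates, higher in 2 and lower in 3. ANLN was called in 4, higher in MSGN1, RIPPLY2 and MEOX1 cells and lower in TBXT cells. MCM6, CCNA2, BUB1 and HMMR were called in CHRD cells and in no other gate. The background share of calls ranges from 8.89% to 31.5% between the gates, so a count over gates is not even.

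No test was made across the stages, each of which is 1 library, and intervals here cover counting error only. In all cells the S list stood highest in the 7S library, with 1992 CPM (95% exact Poisson interval 1974 to 2009), and lowest in the 13S library, with 1683 CPM (interval 1673 to 1694). The 4S and 10S libraries lay between them, with 1833 CPM (interval 1820 to 1847) and 1863 CPM (interval 1852 to 1873). The G2/M list was at 2503, 2686, 2374 and 2357 CPM and the histone list at 613, 545, 541 and 641 CPM. S and G2/M were highest at 7S, the shallowest library, and histones at 13S.

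Of the 39 members with at least 100 UMIs in each library, 9 had a highest library at least 1.5 times the lowest (23.1%), against 33.4% of the 8088 genes that met the same minimum. These genes were not matched to the members for level. CDC6 had the largest ratio, with 76.8, 129, 72.8 and 57.2 CPM at the 4 stages (2.25). SLBP was at 94.4, 112, 84.5 and 68.3 CPM (1.65), RRM2 at a ratio of 1.53 and MCM5 of 1.51, all highest at 7S and lowest at 13S. SMC4, a condensin subunit, was at 101, 157, 109 and 108 CPM (1.56) and also highest at 7S. HMMR was at 18.5, 11.6, 15.9 and 19.4 CPM (1.68), lowest at 7S. Of the 39 members 18 were highest at 7S (46.2%), against 45.5% of the 8088 genes.

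The histones among the 9 were highest at 4S. HIST1H46 was at 23.3, 14.2, 15.003 and 17.5 CPM (1.64), HIST1H2B7 at 17.8, 11.6, 11.5 and 14.5 CPM (1.55) and HIST1H3H, an H3 gene, at 23.4, 15.1, 15.7 and 21.2 CPM (1.54). Without the 7S library, a comparison chosen after the data were seen, 2 of the 39 members (5.13%) had a ratio of at least 1.5, HIST1H2B7 and HIST1H46 (1.55 for both), against 15.01% of the 8088 genes. CDC6 then had a ratio of 1.34.

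The 9 members were also followed across the stages inside the gates, which share their libraries. They were chosen by their ratio over all cells, and the gates are parts of these cells, so agreement between gates is a description. The share of all genes with such a pattern inside each gate was not counted. The minimum of UMIs per library was applied over all cells and not inside the gates, where some ranks rested on few UMIs. HIST1H2B7 had 4, 8, 29 and 32 UMIs in PAX6 cells from 4S to 13S and 23, 3, 18 and 7 in LMO2 cells. HIST1H3H had 0 UMIs in PAX6 cells at 4S, and HMMR had 4 at 7S in TFAP2A and in LMO2 cells. The part of counting error in these ranks was not tested. CDC6 and SMC4 were highest at 7S in 8 of 8 gates, MCM5 in 7, and RRM2 and SLBP in 6. RRM2 was lowest at 13S in 8 gates, CDC6 and SLBP in 7 and MCM5 in 6. HMMR was lowest at 7S in 5 and highest at 13S in 3. SMC4 was lowest at 4S, its lowest library over all cells, in 3 gates. HIST1H2B7 was highest at 4S in 7 gates, HIST1H46 in 6 and HIST1H3H in 5. HIST1H2B7 was lowest at 7S in 5 gates and at 10S, its lowest library over all cells, in 2. HIST1H46 and HIST1H3H, both lowest at 7S over all cells, were lowest there in 4 and 3 gates.

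Shares of S-high cells were 22.9% (95% Clopper-Pearson interval 21.6 to 24.3), 28.1% (26.9 to 29.2), 23.4% (22.5 to 24.3) and 19.4% (18.5 to 20.4) at 4S, 7S, 10S and 13S. Those of G2/M-high cells were 24.5% (23.1 to 25.8), 27.3% (26.2 to 28.5), 21.7% (20.8 to 22.6) and 21.9% (20.9 to 22.9). Both were highest at 7S, the shallowest library and the one in which 2012 cells fell under the depth filter, and the part of this in the shares was not tested. The S-high share at 13S was the lowest of the 4 stages in each of the 8 gates. In CHRD cells it was 5.80% (3.03 to 9.91) at 13S against 15.8% (11.0 to 21.7) at 7S, and in PAX6 cells 23.8% (18.8 to 29.5) against 37.3% (30.6 to 44.3). Other gaps were small, as in RIPPLY2 cells with 18.1% (13.3 to 23.8) at 13S against 19.7% (13.4 to 27.4) at 4S. The gates are parts of the same libraries, so their agreement is a description.

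**Figure D5:**
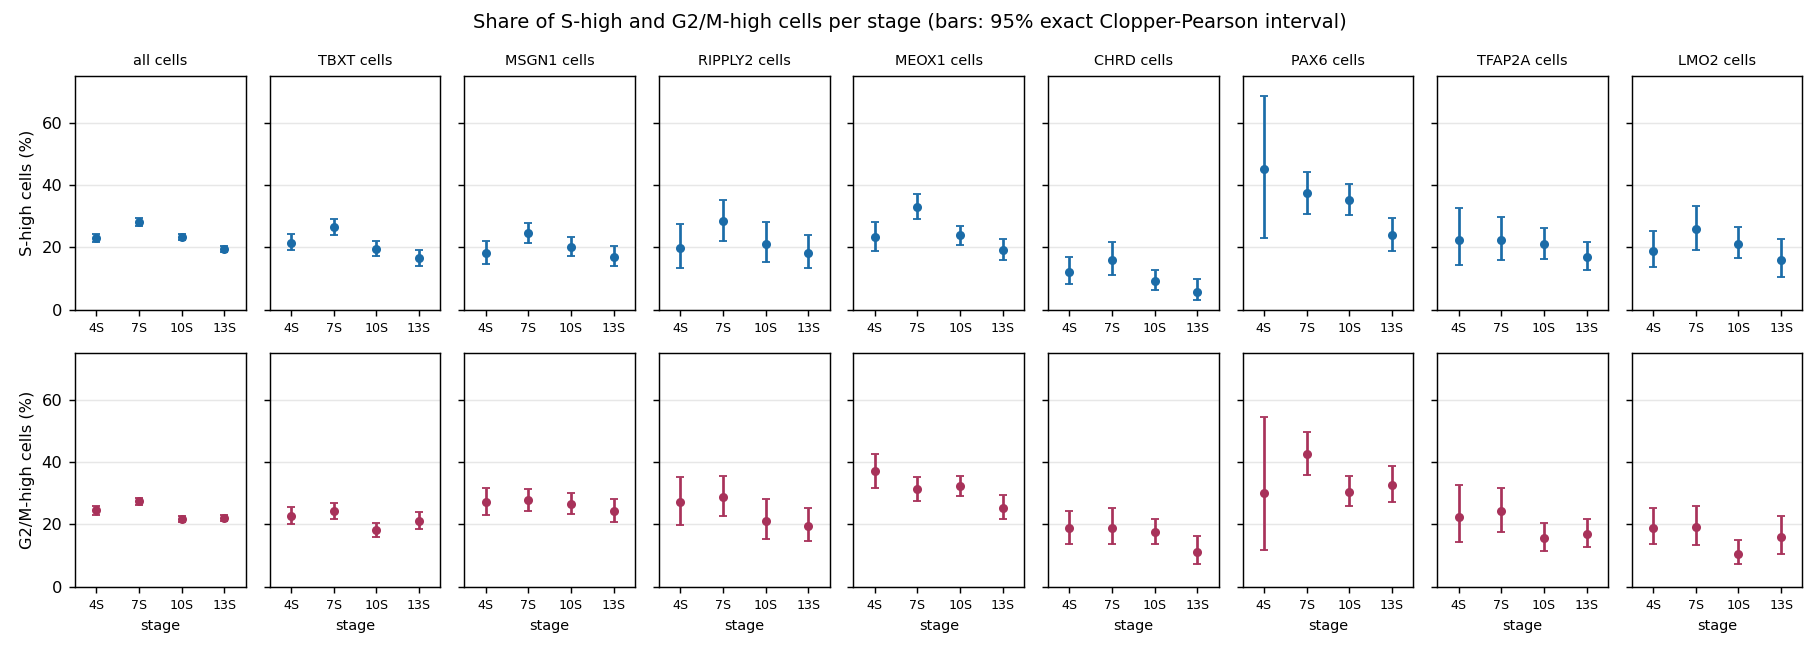
Share of S-high (top) and G2/M-high cells (bottom) in percent at each stage, in all cells and in each gate, with 95% Clopper-Pearson intervals that cover counting error only. CHRD cells lie lowest in the S-high row, and the S-high share is lowest at 13S in every panel.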

How the data were processed

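Trunk cells of 4 chick libraries, 1 per stage, were measured by 10x 3′ single-cell RNA sequencing. The authors aligned the reads with Cell Ranger 4.0.0 to the GRCg6a build, used DropEst to count exonic and intronic UMIs, removed doublets with Scrublet and filtered cells per stage, and the deposited values are raw UMI counts per gene and cell. No doublet caller was run again. Counting introns adds unspliced RNA to these levels, and whether the counting used strand is not given in the sources used here.

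Cells with at least 2500 UMIs and at most 7.5% mitochondrial UMIs were kept. Each was thinned to 2500 UMIs, and a gate needed 2 thinned UMIs (TBXT, MSGN1, MEOX1, CHRD, LMO2) or 1 (RIPPLY2, PAX6, TFAP2A). S-high and G2/M-high cuts were the smallest whole numbers of thinned UMIs that at most 25% of cells reached. Raw counts were summed per library and side, and 13 comparisons were fitted with edgeR 4.0.16 (quasi-likelihood, TMM, filterByExpr, library as a block, Benjamini-Hochberg threshold 0.05, R 4.3.3). The same fit was run on simulated data with known changes in genes drawn at random. These genes were fewer than those called in any of the 13 comparisons, so recovery in the real data can differ. In the simulation the fit found between 14% (CHRD against TBXT) and 75% (S-high) of 1.5-fold changes, and between 37% and 95% of 2-fold changes in the same comparisons. Counts of called members are therefore not even between comparisons. List sums and shares had exact two-sided sign-flip tests over 4 libraries. Phase calls used Scanpy 1.11.5. No test was made across stages, each of which is 1 library.

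Genes given in every library were the 3 highest of each list and, per comparison, up to 3 called members at each end of the log2 difference, with up to 5 other cell cycle genes, of which 1 is not reported here. Alternatives were DESeq2 1.42.0, no filter, no block, thinned sums, another seed, other gate minimums, cells of only 1 gate, other cuts, unthinned scores, Scanpy phases, removal of the deepest 5% of cells and of each library. The members and lists were chosen with earlier results of these data known. Of 57 other cell cycle genes 47 were found by name. No sequence was used here.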

Additional observations from a re-analysis of the deposited data

How the results depend on the processing

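No paired analysis was possible because, between stages, the libraries share only the replicate number 1. Within a library gated and other cells are paired by the library block and by the sign-flip tests. Without that block the members called were 0 for TBXT, 1 for MSGN1, 0 for RIPPLY2, 1 for MEOX1, 20 for CHRD, 2 for PAX6, 0 for TFAP2A, 2 for LMO2, 0 for MEOX1 against MSGN1, 0 for CHRD against TBXT, 6 for PAX6 against TBXT, 1 for S-high and 3 for G2/M-high cells. Of 112 pairs of a named gene and a comparison 74 lost their call without the block, 21 of 111 with DESeq2 and 6 of 112 without the filter, and none reversed.

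DESeq2 called 1 member for RIPPLY2, 12 for PAX6, 4 for TFAP2A, 2 for MEOX1 against MSGN1 and 1 for CHRD against TBXT. Without the filter the counts were 12 for TBXT, 8 for PAX6, 20 for LMO2 and 9 for CHRD against TBXT. Thinned sums gave 8 for MSGN1, 1 for RIPPLY2, 8 for MEOX1, 10 for PAX6, 4 for TFAP2A, 2 for MEOX1 against MSGN1 and 2 for CHRD against TBXT. Another seed gave 1 for RIPPLY2, 7 for MEOX1 against MSGN1 and 10 for CHRD against TBXT, and removal of the deepest cells 1 for RIPPLY2. A gate of 2 UMIs gave 8 for PAX6 and 5 for TFAP2A, a gate of 1 UMI 7 for LMO2, and cells of only 1 gate 6 for CHRD, 8 for MEOX1 against MSGN1 and 13 for PAX6 against TBXT. CHRD cells outside the TBXT gate gave 4. The causes were not tested.

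Leaving out 1 library gave 0 to 5 members for TBXT, 7 to 17 for MSGN1, 1 to 3 for RIPPLY2, 5 to 10 for MEOX1, 24 to 34 for CHRD, 7 to 19 for PAX6, 4 to 8 for TFAP2A, 6 to 15 for LMO2, 2 to 5 for MEOX1 against MSGN1, 2 to 4 for CHRD against TBXT, 9 to 22 for PAX6 against TBXT, 26 to 27 for S-high and 20 to 21 for G2/M-high cells.

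List differences (gate minus other cells) kept their sign in 400 of 424 values, and 14 of the 40 results turned in at least 1 alternative. With cells of only 1 gate the sign turned for TBXT (S 31.8 CPM, G2/M 9.30 CPM, S-high share 0.0173 points), RIPPLY2 (S 82.9 CPM, G2/M -81.5 CPM, G2/M-high share -5.60 points) and the CHRD G2/M-high share (1.08 points). Without the deepest cells the TBXT histone difference was -8.48 CPM, and leaving out 1 library gave -5.25 (7S) to 10.5 CPM (10S). For RIPPLY2 leaving out 1 library gave -69.1 (7S) to 35.9 CPM (4S) for S, -9.60 (4S), -9.03 (10S) and up to 63.4 CPM (13S) for G2/M, and -0.522 (4S), -0.147 (7S) and up to 1.19 points (13S) for the G2/M-high share. The RIPPLY2 histone difference was -4.88 CPM with a gate of 2 UMIs and its S-high share 1.11 points at the 10% cut. On unthinned counts the G2/M-high share of RIPPLY2 was -2.97, the S-high share of MEOX1 -5.64 and that of TFAP2A 2.37 points. MEOX1 gave -15.4 (without 7S) to 65.5 CPM (without 4S) for S and -1.71 points by Scanpy phases. PAX6 histones were at -7.09 CPM with another seed, -20.5 CPM without 10S, -44.8 CPM without 13S and 46.8 CPM without 7S. Depth limits members under 100 UMIs in a library, of which 4 were not judged across stages, and the 20 PAX6 cells at 4S.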

Other observations

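LEFTY1, a Nodal antagonist of the midline, had at least 1 thinned UMI in 129 of the 989 CHRD cells, and these were set beside the other 860 without a test, a comparison chosen after the data were seen. From 4S to 13S the S list was at 867, 1417, 884 and 869 CPM in CHRD cells with LEFTY1, against 1292, 1344, 1107 and 773 CPM in those without. The G2/M list was at 1397, 1976, 1256 and 1955 CPM against 2116, 2199.9, 1591 and 1329 CPM. Cells with LEFTY1 were lower for both lists at 4S and 10S and higher for both at 13S, and the groups overlapped. Each library held between 23 and 41 cells with LEFTY1. The gene had a mean of only 90.2 CPM in CHRD cells, so a thinned cell that expresses it can show no UMI. The cells without LEFTY1 can therefore include cells that express it, and the split cannot separate expressing from non-expressing cells.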
